A study of Homo sapiens with 18 samples.

Results

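The comparison described here set acini of MCF-10A.B2 cells given the B/B homodimerizer (WT dimerizer) against acini of the same cells given ethanol (WT control). It comprised 6 of the 18 RNA-seq libraries of the series, 3 WT dimerizer and 3 WT control, picked by their titles, and expression was followed across all genes. MCF-10A.B2 is a human mammary epithelial line, immortal but not tumorigenic, that carries an inducible chimera with the kinase of HER2 (ERBB2), and B/B is a bivalent small molecule that pairs these chimeras without any ligand. Wild type here means that the JNK genes were intact, and the chimera was carried by all groups. Cells of both groups grew on growth factor reduced Matrigel for 21 days in medium with horse serum, insulin, hydrocortisone and cholera toxin. EGF was present for the first 7 days, and for the last 14 days it was replaced by the dimerizer or by ethanol. The other 12 libraries, from JNK-knockout (JNKKO) acini and from acini that also received TGF-β1, entered the fit and contributed to its estimate of the spread. The genotype tag of 1 of these, a WT dimerizer library with TGF-β1, contradicts its title, which was followed.

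HER2 is a receptor tyrosine kinase of the EGF receptor family, and when paired it signals through RAS, RAF, MEK and ERK and through PI3K and AKT. ERK activity induces transcription factors of the ETS and EGR families, and it also induces its own inhibitors, the Sprouty and SPRED proteins and the dual-specificity phosphatases, so that these genes are commonly read as a record of pathway output. In Matrigel culture MCF-10A cells form hollow spheres in which proliferation stops and the centre is cleared by cell death. Paired HER2 is known in this system for reopening proliferation and filling the lumen.

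The 6 libraries held between 29101159 and 34499651 expected counts, the read numbers that RSEM assigns to each gene, and replicates of each group lay close together, with a common biological coefficient of variation of 4.47% over the whole series. All 10 mammary epithelial markers listed passed the filter on low counts, and their summed TPM (a level scaled for gene length and library total) was 7351 to 7615 in WT dimerizer libraries and 6126 to 6791 in WT control libraries. Markers of other cell types were low. The 8 fibroblast markers summed to 21.96 to 22.7 TPM in WT dimerizer libraries and 40.6 to 40.99 TPM in WT control libraries, and the 8 immune markers to 9.99 to 10.3 TPM and 10.6 to 11.5 TPM, with TYROBP at 0 in all 6 libraries. The 6 endothelial markers summed to 6 to 6.45 TPM in WT dimerizer libraries and 9.29 to 9.85 TPM in WT control libraries, and the 5 adipocyte markers, with ADIPOQ at 0, to 0.29000 to 0.69000 TPM and 1.23 to 1.45 TPM. RNA came from whole acini, so fewer cells of a kind and less RNA per cell cannot be told apart. Nothing in the labels tells if replicates were grown as independent cultures, so p-values measure the spread among libraries within groups, which may be technical.

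Of 16911 genes tested, 9451 passed the quasi-likelihood F test of edgeR at an adjusted p under 0.05, which is 55.9% of them. WT dimerizer acini had more of 5125 genes (30.3%) and less of 4326 genes (25.6%). Most of these differences were small. The median called gene differed by a log2 of 0.40, a 1.32-fold change, and 1428 genes (8.44%) were called with a change of at least 2-fold, 802 higher (4.74%) and 626 lower (3.7%). The 3 WT dimerizer and 3 WT control libraries did not overlap for 10507 genes (62.1%). Counts within gene lists below are to be read against these shares of all genes, 30.3% higher and 25.6% lower. The balance of rises and falls depended on the scale. Limma on log2(TPM + 1) called 6250 genes higher and 2814 lower, and after the mitochondrially encoded genes were removed and TPM rescaled, an alternative added after the data had been seen, it called 3140 higher and 5757 lower. The median log2 difference of all genes was 0.03 in counts, 0.09 on log2(TPM + 1), 0.13 on log2(TPM + 0.1) and -0.06 on the rescaled TPM, so small differences are best read relative to these medians. Of the 1428 genes called at 2-fold or more, 1427 kept their direction on log2(TPM + 1) and 1267 also passed the limma test. Of all 9451 called genes, 9331 kept their direction and 7673 also passed. Sizes held less well, as only 253 genes were higher and 194 lower by at least 2-fold on log2(TPM + 1). Protein-coding genes were called more often than non-coding genes, at 61.4% of 13877 against 32.1% of 924 long intergenic RNAs and 29.3% of 1288 antisense genes, and since the use of strand was not stated the antisense values are uncertain.

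**Figure D1:**
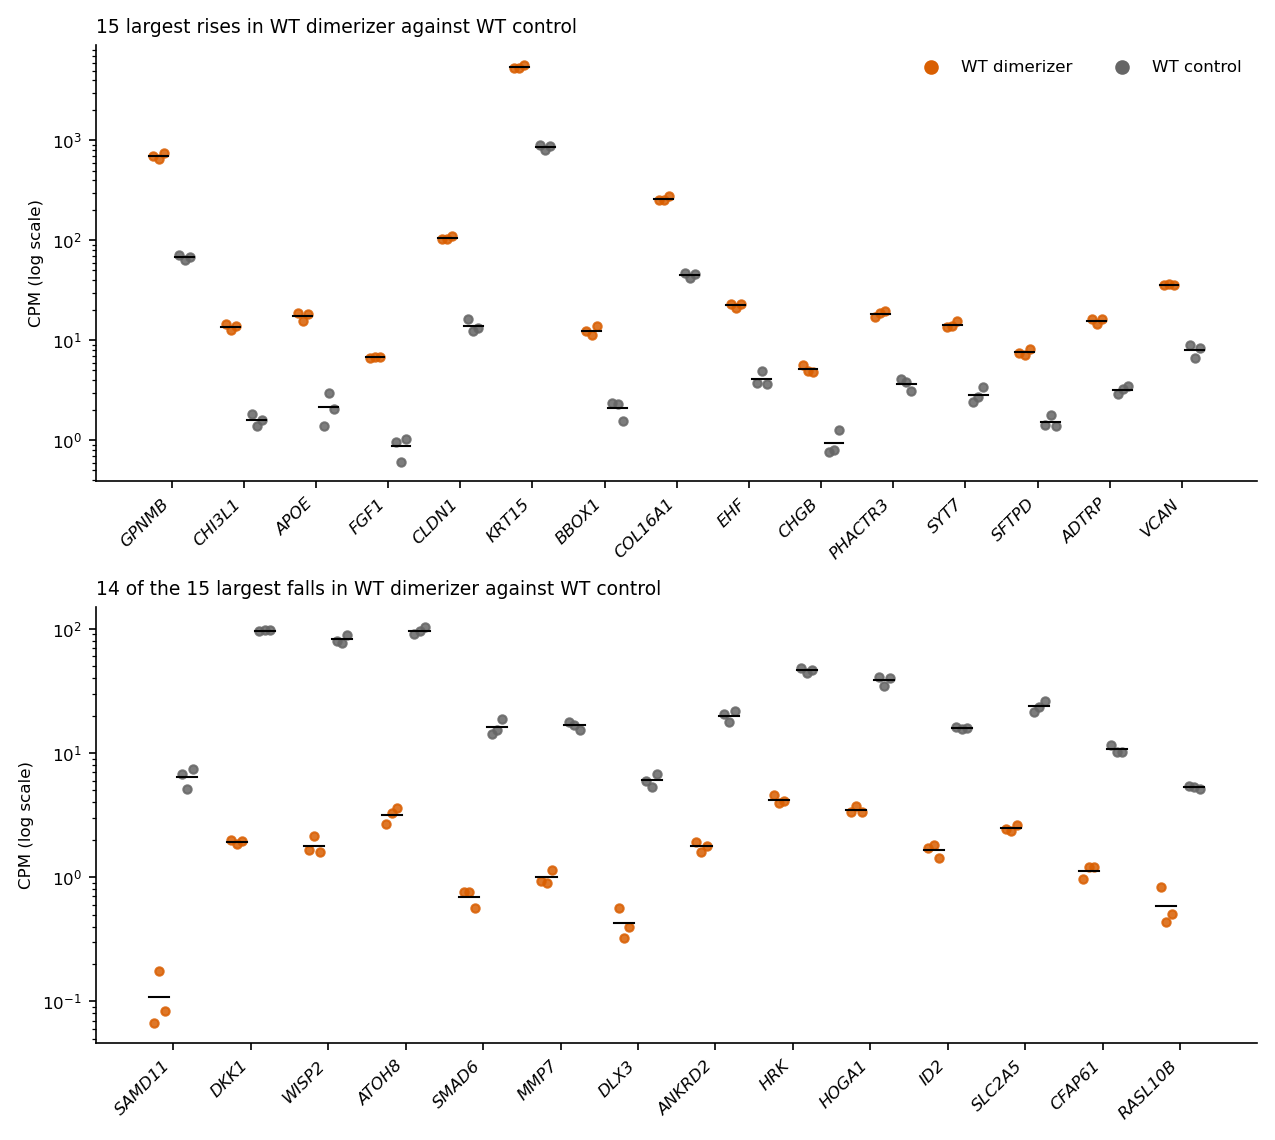
Normalized counts (CPM, log axis) of the 15 largest rises (upper panel) and 14 of the 15 largest falls (lower panel). The ranking took called genes that reached 5 CPM in the higher group with no overlap between the 3 and 3 libraries. The kinds of names left out of the ranking are given in the text. Each point is 1 library, with WT dimerizer in orange left of WT control in grey, and the line marks the group mean. Separation of the 3 WT dimerizer from the 3 WT control libraries was thus set by the ranking.

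The rankings of rises and falls left out pseudogenes, hyphenated names, names of clones and non-coding genes, and other symbols that share their prefixes. Among the remaining called genes that reached 5 CPM without overlap, GPNMB rose most (GRCh38 chromosome 7, 23235967 to 23275108, plus strand). GPNMB is a membrane glycoprotein of lysosomes and melanosomes that is also found at the surface of breast cancer cells. It reached 692, 653 and 757 CPM in WT dimerizer libraries, against 72.03, 62.9 and 68.3 CPM in WT control libraries, where CPM are counts scaled to the effective library size. That is a 10.3-fold rise (log2 difference 3.37 ± 0.29, with ± SE here and for every log2 difference that follows; edgeR, adjusted p = 4.2e-07), and the lowest WT dimerizer library lay far above the highest WT control library. KRT15, a keratin of basal and progenitor cells of stratified epithelia, reached 5247, 5333 and 5638 CPM in WT dimerizer libraries, against 894, 810.2 and 874 CPM in WT control libraries (log2 difference 2.65 ± 0.12). CLDN1, a tight junction claudin, had 104, 103 and 111 CPM in WT dimerizer libraries, against 16.2, 12.5 and 13.4 CPM in WT control libraries, and rose 7.53-fold. COL16A1, a fibril-associated collagen chain, had 252, 251 and 276 CPM in WT dimerizer libraries, against 46.7, 42.2 and 46.3 CPM in WT control libraries, a 5.76-fold rise. In each of these genes the 3 libraries of a group lay close together, and absence of overlap was a condition of the ranking. The epithelial ETS factor EHF reached 23.2, 21.3 and 22.9 CPM in WT dimerizer libraries, against 3.71, 4.97 and 3.63 CPM in WT control libraries. Growth factor FGF1, which binds all FGF receptors, had 6.67, 6.83 and 6.74 CPM in WT dimerizer libraries, against 0.952, 0.613 and 1.04 CPM in WT control libraries. The lipid carrier APOE had 18.99, 15.5 and 18.1 CPM in WT dimerizer libraries, against 1.397, 2.97 and 2.08 CPM in WT control libraries, and among its WT control libraries the values were less even than for most genes of this group. The remaining rises by size were CHI3L1, a secreted chitinase-like glycoprotein (log2 difference 3.08), BBOX1, the last enzyme of carnitine synthesis (2.58), the secretory granule protein CHGB (2.43), PHACTR3, a regulator of phosphatase 1 and actin (2.34), the calcium sensor of exocytosis SYT7 (2.33), the collectin SFTPD (2.31), ADTRP, a hydrolase of fatty acid esters (2.29), and the large matrix proteoglycan VCAN (2.17).

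With the same names left out, falls were ranked among called genes that reached 5 CPM in the higher group without overlap. The largest falls were steeper than the largest rises. DKK1, a secreted inhibitor of Wnt co-receptors (GRCh38 chromosome 10, 52314296 to 52318042, plus strand), dropped to 1.99, 1.84 and 1.97 CPM in WT dimerizer libraries, against 95.2, 96.8 and 97.8 CPM in WT control libraries, which is 49.9-fold lower (log2 difference -5.64 ± 0.11, SE; edgeR, adjusted p = 2.0e-21). WISP2 (CCN5), a matricellular protein of the CCN family, had 1.66, 2.13 and 1.601 CPM in WT dimerizer libraries, against 80.2, 77.1 and 89.9 CPM in WT control libraries, 45.7-fold lower. ATOH8, a helix-loop-helix factor induced by bone morphogenetic protein (BMP) signals, had 2.69, 3.296 and 3.596 CPM in WT dimerizer libraries, against 91.3, 95.4 and 103 CPM in WT control libraries. All 3 genes were well expressed in every WT control library and under 4 CPM in every WT dimerizer library. SAMD11, a nuclear SAM domain protein, had 2, 6 and 3 counts in WT dimerizer libraries, against 215, 159 and 221 counts in WT control libraries, so its fitted log2 difference of -5.82 rests on very few reads in the treated acini. SMAD6, an inhibitor of BMP signalling, had 0.764, 0.758 and 0.562 CPM in WT dimerizer libraries, against 14.3, 15.3 and 18.8 CPM in WT control libraries. As for the rises, separation of the 2 groups was a condition of this ranking. MMP7, an epithelial matrix metalloproteinase, had 0.9296, 0.904 and 1.15 CPM in WT dimerizer libraries, against 17.7, 16.8 and 15.4 CPM in WT control libraries. HRK, a BH3-only cell death protein, had 4.55, 3.94 and 4.07 CPM in WT dimerizer libraries, against 48.6, 44.2 and 46.5 CPM in WT control libraries. Also among the 15 largest falls were DLX3, a homeobox factor of squamous differentiation (log2 difference -3.82), the muscle ankyrin repeat gene ANKRD2 (-3.50), HOGA1, an enzyme of hydroxyproline breakdown (-3.47), the BMP target ID2 (-3.26), the fructose transporter SLC2A5 (-3.25), the cilium protein CFAP61 (-3.24) and the RAS-like gene RASL10B (-3.17). ANKRD2 and HOGA1 are neighbours on chromosome 10 on the same strand, 438 bases apart. The largest adjusted p among the 30 genes of both lists was 2.9e-05.

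Genes of the receptor family itself moved in both directions. EGF-family ligands were called higher in 7 of 9 tested, and none was called lower, with a list median log2 of 0.55 against 0.03 for all genes; on the rescaled TPM the list had 3 higher and 0 lower. AREG, amphiregulin, had 105, 106 and 100.4 CPM in WT dimerizer libraries, against 37.3, 47.1 and 50.2 CPM in WT control libraries (log2 difference 1.21 ± 0.12). HBEGF, heparin-binding EGF, had 15.04, 13.2 and 13.01 CPM in WT dimerizer libraries, against 5.21, 5.52 and 5.67 CPM in WT control libraries, and BTC, betacellulin, rose by a log2 of 1.68. EPGN (0.46) and TGFA (0.29) rose less, calls that were lost on the rescaled TPM (adjusted p = 0.274 and 0.277). Of the receptors, EGFR fell to 623, 603 and 621 CPM in WT dimerizer libraries, against 877, 862 and 854 CPM in WT control libraries (log2 difference -0.49 ± 0.05). ERBB2 read 62.4, 61.96 and 61.1 CPM in WT dimerizer libraries, against 81.5, 85.7 and 91.1 CPM in WT control libraries. This was a fall of the same size (-0.48 ± 0.04). The outer part of NGFR belongs to the chimera. NGFR read 218, 213 and 200.1 CPM in WT dimerizer libraries, against 214, 252 and 257 CPM in WT control libraries. It did not pass the test (adjusted p = 0.103, and 0.0282 without WT control replicate 1). NGFR was called lower with the 6 libraries alone (adjusted p = 0.0431) and on the rescaled TPM (limma, adjusted p = 0.00853). Reads of the chimera may be assigned to ERBB2 or NGFR, so these values need not describe the cell's own genes. LRIG1, which promotes degradation of ERBB receptors, rose (0.91 ± 0.06), as did LRIG3 (0.54), and the ubiquitin ligase CBLB fell (-0.52).

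The ERK feedback inhibitors were higher in 14 of 18 tested and lower in 1, with a median log2 of 0.59. SPRED1, which holds RAF inactive, had 49.97, 47.4 and 49.9 CPM in WT dimerizer libraries, against 16.3, 19.8 and 16.5 CPM in WT control libraries (log2 difference 1.49 ± 0.06; adjusted p = 2.4e-17). The ERK phosphatases DUSP4 and DUSP6 rose by 1.41 and 1.36, and DUSP10, which acts on p38 and JNK, by 0.84. DUSP6 had 158, 175 and 151 CPM in WT dimerizer libraries, against 56.8, 64.5 and 67.3 CPM in WT control libraries, and its groups were well apart. The exception was DUSP1, also a target of glucocorticoids, which had 301, 336 and 298 CPM in WT dimerizer libraries, against 576, 592 and 651 CPM in WT control libraries, a log2 difference of -0.96 ± 0.07. Of the ERK-induced transcription factors 10 of 14 were called higher and 1 lower. The PEA3 group of ETS factors rose together, ETV5 by 1.26 ± 0.08, ETV1 by 1.18 ± 0.11 and ETV4 by 0.57 ± 0.09. ETV5 had 22.3, 23.98 and 19.7 CPM in WT dimerizer libraries, against 8.19, 10.2 and 9.2001 CPM in WT control libraries. MYC reached 371, 406 and 379 CPM in WT dimerizer libraries, against 210.3, 233 and 224 CPM in WT control libraries (log2 difference 0.79 ± 0.04), and EGR1 had 99.6, 112 and 101 CPM in WT dimerizer libraries, against 49.1, 59.2 and 57.3 CPM in WT control libraries.

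AP-1 subunits and their small MAF relatives, which pair on DNA as leucine zippers, went the other way: 10 of 17 were lower and 2 higher, with a median log2 of -0.30. FOSL2 had 361, 363 and 376 CPM in WT dimerizer libraries, against 790.2, 773 and 825 CPM in WT control libraries (log2 difference -1.12 ± 0.05). MAFF (-0.999), JDP2 (-0.95) and MAFK (-0.69) fell as well. JUN fell slightly, with 82.5, 83.99 and 79.3 CPM in WT dimerizer libraries, against 93.5, 94.3 and 101 CPM in WT control libraries (-0.23 ± 0.07; adjusted p = 0.00695), and FOS, with 72.1, 93.96 and 69.4 CPM in WT dimerizer libraries, against 93.8, 95.8 and 99.4 CPM in WT control libraries, did not pass the test (adjusted p = 0.136, and 0.0399 without WT dimerizer replicate 2). The fall of JUN was not called by limma on log2(TPM + 1), where its adjusted p was 0.133. Of the JNK kinases and their upstream kinases 9 of 21 were higher and 8 lower, a balance that turned with the rescaled TPM (6 higher and 10 lower). MAPK8 (JNK1) had 28.6, 31.1 and 29.6 CPM in WT dimerizer libraries, against 25.3, 22.8 and 24.6 CPM in WT control libraries (0.30 ± 0.06), MAPK9 (JNK2) differed by -0.06 ± 0.04 without passing the test, and MAP3K5, an activator of JNK and p38, fell (-0.72 ± 0.05).

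The PI3K branch gave a mixed picture. Of 24 genes of the PI3K, AKT and mTOR pathway 11 were higher and 7 lower, which turned to 8 higher and 11 lower on the rescaled TPM. Negative regulators were among the called genes on both sides: INPP4B, a phosphatase of phosphoinositides, had 19.8, 21.3 and 21.1 CPM in WT dimerizer libraries, against 7.75, 7.75 and 7.86 CPM in WT control libraries (1.41 ± 0.07), PIK3IP1 rose by 1.15 ± 0.08, and TSC2, which restrains mTOR, fell (-0.72 ± 0.04). FOXO1, a transcription factor that AKT inactivates, had 118, 114 and 117 CPM in WT dimerizer libraries, against 211, 208 and 211 CPM in WT control libraries (-0.85 ± 0.03). In the insulin and IGF axis the adaptor IRS2 had 46.9, 47.9 and 47.1 CPM in WT dimerizer libraries, against 113, 106 and 129 CPM in WT control libraries (-1.30 ± 0.06), and the receptors IGF1R (-0.35 ± 0.04) and INSR (-0.44 ± 0.05) fell while IRS1 rose (0.50 ± 0.08). The FGF axis was higher in 8 of 15 and lower in none, with a median log2 of 0.59. Beside FGF1, the receptor FGFR3 had 119, 128 and 127 CPM in WT dimerizer libraries, against 50.95, 57.5 and 60.04 CPM in WT control libraries (1.15 ± 0.05), and FGFR1 and FGFR2 rose by 0.83 ± 0.12 and 0.38 ± 0.09.

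**Figure D2:**
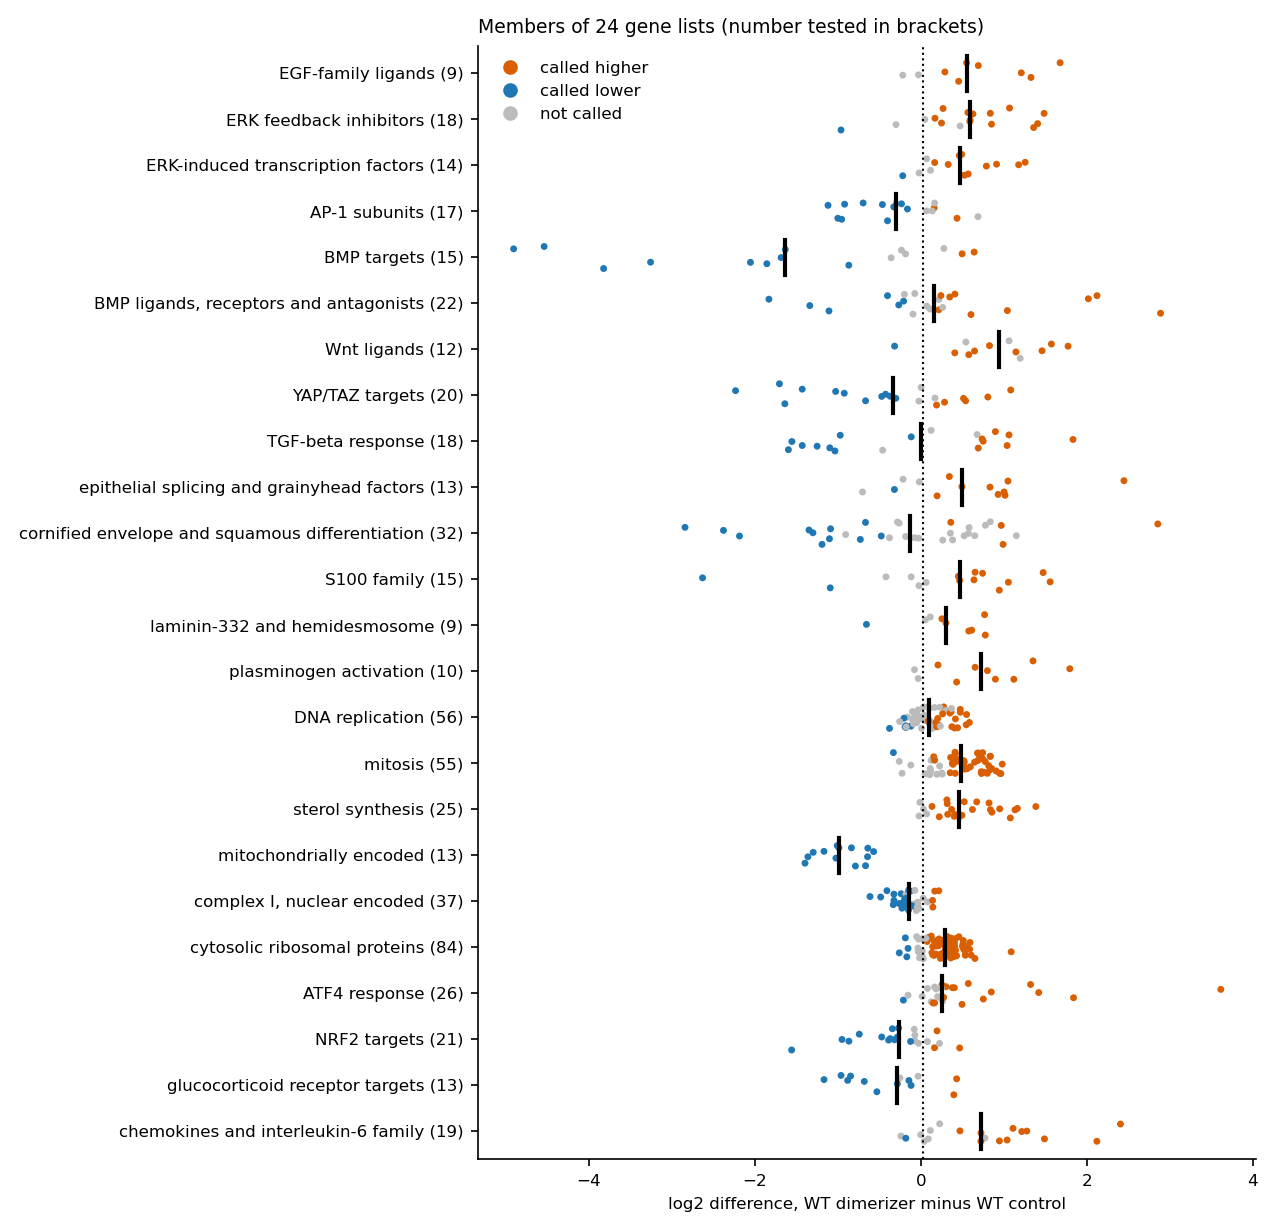
Log2 differences (WT dimerizer minus WT control) of the tested members of 24 gene lists, 1 point per gene; orange points were called higher, blue points lower and grey points not called at an adjusted p under 0.05. The black bar is the list median and the dotted line the median of all genes tested, 0.03. BMP targets and mitochondrially encoded genes lie mostly left of it, and ERK feedback inhibitors, sterol synthesis, mitosis and cytosolic ribosomal protein genes mostly right of it.

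BMP signalling, in which SMAD1, SMAD5 and SMAD9 carry the signal to the nucleus and the ID genes are direct targets, was marked by falls among its targets. Of 15 targets tested, 9 were lower and 2 higher, with a median log2 of -1.63 against 0.03 for all genes, and 8 of the falls were at least 2-fold, against 3.7% of all genes. ID1 had 40.9, 37.3 and 36.7 CPM in WT dimerizer libraries, against 111, 120.0 and 125 CPM in WT control libraries. ID3 had 35.9, 34.1 and 36.1 CPM in WT dimerizer libraries, against 122, 129 and 133 CPM in WT control libraries (log2 difference -1.85 ± 0.05; adjusted p = 2.7e-22), and ID2 had 1.73, 1.81 and 1.43 CPM in WT dimerizer libraries, against 16.2, 15.5 and 15.8 CPM in WT control libraries. All 3 ID genes, which encode helix-loop-helix proteins that block differentiation factors, had WT dimerizer libraries far under the lowest WT control library. SMAD9 fell (-1.68 ± 0.06), beside the falls of SMAD6, ATOH8 and DLX3 given above. HES1 and HEY1, which Notch also induces, were the exceptions, with log2 differences of 0.50 and 0.64, and BAMBI, MSX1, MSX2 and BMPER did not pass the test (BAMBI passed without WT control replicate 3, adjusted p = 0.0451, and MSX1 without WT control replicate 1, adjusted p = 0.0364). The ligand BMP2 itself had 9.06, 8.898 and 9.05 CPM in WT dimerizer libraries, against 32.7, 29.8 and 33.5 CPM in WT control libraries (log2 difference -1.83 ± 0.07). Its antagonist NOG fell (-1.34 ± 0.19) and FSTL3, which binds activins, likewise (-1.11 ± 0.07). Over the 22 ligands, receptors and antagonists tested, 9 were higher and 6 lower, which turned to 5 higher and 6 lower on the rescaled TPM. Of the transducers, SMAD5 rose by 0.49 ± 0.04 and SMAD4 fell (-0.20 ± 0.04; not called on log2(TPM + 1), adjusted p = 0.857), while SMAD1 and SMAD3 were not called, the last of these passing without WT dimerizer replicate 2 (adjusted p = 0.0218).

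**Figure D3:**
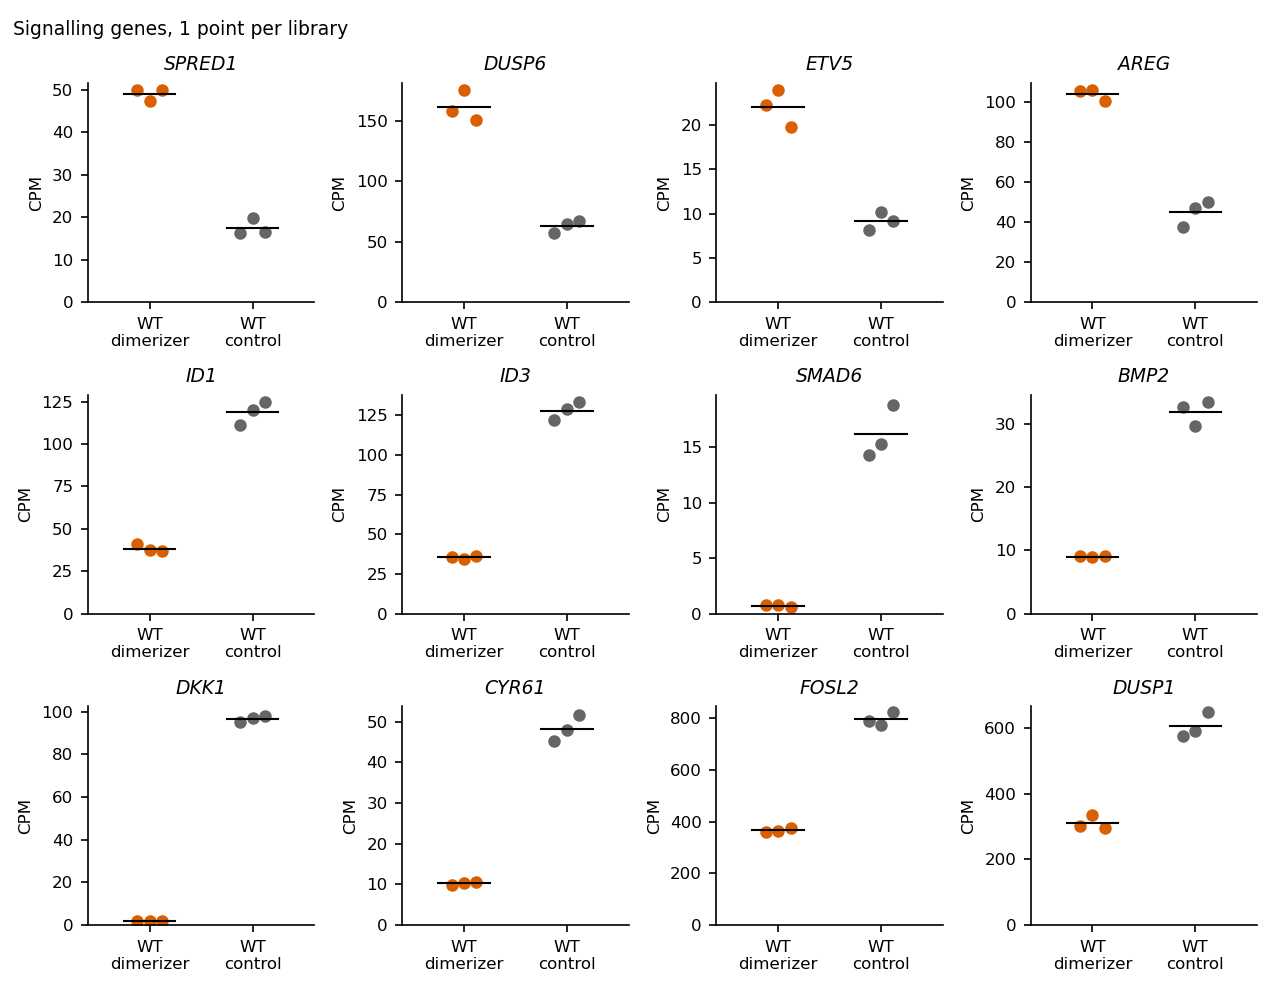
CPM per library (linear axes from 0) of 12 signalling genes, WT dimerizer (orange, left) and WT control (grey, right); the line is the group mean. SPRED1, DUSP6, ETV5 and AREG were higher and ID1, ID3, SMAD6, BMP2, DKK1, CYR61, FOSL2 and DUSP1 lower in WT dimerizer libraries. None of the 12 overlapped, but they were picked from called genes, and 62.1% of all tested genes had no overlap.

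Wnt ligands were mostly higher, and the antagonist DKK1 fell steeply (values above). Of 12 ligands tested, 8 were higher and 1 lower, with a median log2 of 0.95. WNT5A, which acts mainly without β-catenin, had 14.2, 13.7 and 12.9 CPM in WT dimerizer libraries, against 4.603, 4.91 and 5.31 CPM in WT control libraries (log2 difference 1.46 ± 0.17). WNT7A (1.78 ± 0.25), WNT3A (1.57 ± 0.23) and WNT3 (1.15 ± 0.22) rose as well, all of them under 1 CPM on average in WT control. The antagonists SFRP1 and APCDD1 rose by 0.82 ± 0.05 and 1.80 ± 0.21. SFRP1 had 464, 500.4 and 469 CPM in WT dimerizer libraries, against 265, 274 and 270.3 CPM in WT control libraries. Among the 12 receptors 6 were higher and 3 lower (4 higher and 4 lower on the rescaled TPM), with log2 differences of 0.66 for FZD6, 0.91 for FZD4, -0.89 for FZD2 and -0.61 for FZD8. Common targets of β-catenin did not move as a block: 2 of 9 were higher (LGR4, and LEF1, whose call was lost on the rescaled TPM with an adjusted p of 0.0529) and 3 lower (NKD1, CCND1, SP5), and AXIN2 did not pass the test (0.20 ± 0.28). CCND1 had 95.8, 94.2 and 90.4 CPM in WT dimerizer libraries, against 119, 125 and 126 CPM in WT control libraries.

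Targets of YAP and TAZ, the co-activators held back by the Hippo kinases, were lower in 11 of 20 and higher in 6, with a median log2 of -0.33. CYR61 (CCN1) had 9.86, 10.3 and 10.6 CPM in WT dimerizer libraries, against 45.1, 47.9 and 51.8 CPM in WT control libraries (log2 difference -2.23 ± 0.08). AMOTL2 had 26.4, 25.8 and 26.1 CPM in WT dimerizer libraries, against 82.3, 85.2 and 87.3 CPM in WT control libraries (-1.70 ± 0.05), and LATS2 (-0.92), CRIM1 (-0.66) and FOXF2 (-1.03) fell. FJX1 rose by 0.81, so the list was not uniform.

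The dimerizer alone, with no TGF-β1 added, changed genes of that pathway unevenly. The ligands, receptors and latency proteins were higher in 9 of 12 and lower in 2: integrin β6 (ITGB6), which frees TGF-β from its latent complex, had 39.7, 43.5 and 40.98 CPM in WT dimerizer libraries, against 9.78, 13.2 and 11.9 CPM in WT control libraries (log2 difference 1.84 ± 0.07), and the latency binding proteins LTBP1 and LTBP2 rose by 1.32 ± 0.11 and 1.06 ± 0.07. TGFBR3, the co-receptor betaglycan, fell (-1.002 ± 0.09). The response genes were split, 7 higher and 8 lower of 18, a balance that turned on log2(TPM + 0.1). TGFBI had 3216, 2987 and 3239 CPM in WT dimerizer libraries, against 6689, 6514 and 6976 CPM in WT control libraries, and TIMP3 (-1.59 ± 0.04) and COL1A1 (-1.25 ± 0.05) fell. Mesenchymal genes and their transcription factors were likewise split, with 7 higher and 8 lower of 22, and the sign of that balance turned on both TPM scales and with the 6 libraries alone. VIM (vimentin) had 1069, 1071 and 1000.4 CPM in WT dimerizer libraries, against 628, 554 and 615 CPM in WT control libraries (0.80 ± 0.05) and CDH2 (N-cadherin) rose by 1.23 ± 0.16, whereas SNAI2, with 79.7, 81.1 and 79.5 CPM in WT dimerizer libraries, against 165, 162 and 165 CPM in WT control libraries (-1.03 ± 0.05), ZEB2 (-1.32 ± 0.06) and S100A4 (-1.09 ± 0.07) fell. FN1 (fibronectin) passed the test at a log2 difference of -1.55 ± 0.51 (adjusted p = 0.0194), but its groups overlapped: it had 7.04, 6.42 and 5.53 CPM in WT dimerizer libraries, against 26.6, 21.98 and 6.65 CPM in WT control libraries, and the highest WT dimerizer library lay above the lowest WT control library. The call was lost without WT control replicate 1 (adjusted p = 0.0958), WT control replicate 2 (0.0608) or WT dimerizer replicate 3 (0.0614), with the 6 libraries alone (0.0859), and on log2(TPM + 1) (0.0519).

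Epithelial regulators were mostly higher. Of 13 listed factors tested, 9 were higher and 1 lower, among them the splicing factor ESRP1 (1.05 ± 0.05), the protease ST14 (0.93 ± 0.07) and CDH1. CDH1 (E-cadherin) had 104, 107 and 107 CPM in WT dimerizer libraries, against 57.05, 56.9 and 64.4 CPM in WT control libraries (log2 difference 0.84 ± 0.06; adjusted p = 4.1e-10). Junction genes changed less as groups. Tight junction genes were called higher in 6 of 19 and lower in 3, which turned to 4 higher and 5 lower on the rescaled TPM. In counts 47.4% of this list was called, under the 55.9% of all genes. Desmosome genes had 6 higher and 3 lower of 13 (4 higher and 4 lower on the rescaled TPM), with PKP2 up by 0.74 ± 0.04 and DSP (desmoplakin) lower (-0.23 ± 0.04; not called on log2(TPM + 1), adjusted p = 0.0776). Apical-basal polarity genes were higher in 11 of 18 and lower in 2 (6 higher and 4 lower on the rescaled TPM), the higher ones including CRB3 (0.70 ± 0.09), LLGL2 (0.75 ± 0.07) and PARD6G (0.56 ± 0.04). DLG5 was the exception among those named and dropped to 624, 625 and 645 CPM in WT dimerizer libraries, against 1338, 1276 and 1315 CPM in WT control libraries (-1.05 ± 0.04).

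Keratin genes moved in both directions. Of the basal pair KRT5 and KRT14, KRT5 had 7278, 7852 and 7806 CPM in WT dimerizer libraries, against 7878, 8589 and 8739 CPM in WT control libraries, which did not pass the test (adjusted p = 0.125; 0.00379 with the 6 libraries alone, on the lower side). KRT14 had 264, 304 and 280.3 CPM in WT dimerizer libraries, against 192, 251 and 213 CPM in WT control libraries (0.37 ± 0.08), a call lost with the 6 libraries alone (adjusted p = 0.0677). KRT17 rose by 0.62 ± 0.08 and TP63, the transcription factor of basal cells, by 0.45 ± 0.05, with 117, 119 and 117 CPM in WT dimerizer libraries, against 87.9, 85.5 and 84.2 CPM in WT control libraries. The steepest keratin fall was KRT10, the keratin of suprabasal, differentiating squamous cells, which had 916, 1009 and 1017 CPM in WT dimerizer libraries, against 6787, 6739 and 7556 CPM in WT control libraries (log2 difference -2.84 ± 0.17). The highest WT dimerizer library lay far below the lowest WT control library. KRT16 (-1.35 ± 0.07) and KRT6A (-0.48 ± 0.03) fell too. Cornified envelope and squamous differentiation genes were lower in 11 of 32, 8 of them by at least 2-fold, and higher in 4, where 25.6% of all genes were called lower and 3.7% lower by at least 2-fold. Filaggrin (FLG) had 6.31, 5.75 and 5.98 CPM in WT dimerizer libraries, against 30.3, 30.95 and 32.4 CPM in WT control libraries, and the crosslinking enzyme TGM1 fell (-1.10 ± 0.07). Basal and myoepithelial genes were higher in 11 of 19 and lower in 4, the lower ones including tropomyosin TPM1 (-1.53 ± 0.04). Luminal genes were called higher in 2 and lower in 5 of 12, a balance that turned on log2(TPM + 1). S100 proteins, calcium-binding proteins of stratified epithelia, were higher in 9 of 15 and lower in 2: S100A2 had 1558, 1581 and 1629 CPM in WT dimerizer libraries, against 711, 761 and 821 CPM in WT control libraries (1.06 ± 0.06), S100A14 rose by 0.95 ± 0.03, and S100A8 and S100A9, the subunits of calprotectin, by 1.56 ± 0.12 and 1.48 ± 0.12.

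Laminin-332 anchors epithelial cells to the basement membrane through hemidesmosomes, and most of its genes were higher. Of the 9 laminin-332 and hemidesmosome genes 6 were higher and 1 lower. The laminin-332 chains LAMA3 and LAMB3 rose by 0.58 ± 0.05 and 0.78 ± 0.10, as did their receptor chains ITGA6 (0.61 ± 0.04) and ITGB4 (0.26 ± 0.06; not called on the rescaled TPM, adjusted p = 0.0617), and the linker PLEC fell (-0.65 ± 0.04). LAMB3 had 629, 563 and 573 CPM in WT dimerizer libraries, against 326, 302 and 402 CPM in WT control libraries. Integrin chains were higher in 9 and lower in 1 of 19, with ITGA2, a collagen receptor chain, at 80.4, 79.3 and 79.8 CPM in WT dimerizer libraries, against 35.2, 36.7 and 38.98 CPM in WT control libraries and ITGA10 up by 1.56 ± 0.08. Collagen chains were higher in 14 and lower in 4 of 26, with rises of COL18A1 (1.44 ± 0.11) and COL5A3 (2.02 ± 0.15) and a fall of COL28A1 (-2.04 ± 0.08). Among proteases, all called members of the plasminogen activation list rose, 8 of 10. Urokinase (PLAU) had 56.9, 53.9 and 53.9 CPM in WT dimerizer libraries, against 14.98, 13.9 and 18.5 CPM in WT control libraries (log2 difference 1.80 ± 0.10), and PLAT, SERPINE2 and the urokinase receptor PLAUR rose by 0.80, 1.35 and 0.43. Matrix metalloproteinases and their inhibitors were 5 higher and 5 lower of 20, so 50% were called, against 55.9% of all genes. TIMP3 had 122, 106 and 116 CPM in WT dimerizer libraries, against 340.5, 343 and 356 CPM in WT control libraries, and TIMP2 fell (-1.04 ± 0.05).

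Of 55 mitosis genes 40 were higher and 1 lower, with a median log2 of 0.49 and none past 2-fold. The phosphatase CDC25B, which activates CDK1, had 200.3, 195 and 193 CPM in WT dimerizer libraries, against 109, 115 and 113 CPM in WT control libraries (0.80 ± 0.04). CCNB2 (cyclin B2) had 13.01, 16.04 and 13.9 CPM in WT dimerizer libraries, against 7.02, 10.1 and 8.53 CPM in WT control libraries (0.75 ± 0.10), and the checkpoint gene MAD2L1, the kinesin KIF18A and HMMR rose by 0.68, 0.97 and 0.78. Of 56 DNA replication genes 19 were higher and 6 lower, with a median log2 of 0.10, and on the rescaled TPM the balance turned to 8 higher and 14 lower. In counts 44.6% of this list was called, under the 55.9% of all genes. TYMS, which makes thymidylate, rose by 0.55 ± 0.06. MKI67, the usual proliferation marker, had 60.96, 78.2 and 62.8 CPM in WT dimerizer libraries, against 47.3, 74.8 and 57.5 CPM in WT control libraries, and it did not pass the test (log2 difference 0.17 ± 0.14; adjusted p = 0.321). Its groups overlapped, and without WT control replicate 2 it passed, at a log2 difference of 0.36 (adjusted p = 0.0132). Among cell cycle regulators the CDK inhibitor CDKN1C (p57) had 29.98, 28.997 and 28.9 CPM in WT dimerizer libraries, against 160.1, 162 and 188 CPM in WT control libraries (log2 difference -2.54 ± 0.11), and CDKN1B (p27, -0.54 ± 0.04) and CDKN1A (p21, -0.40 ± 0.04) fell. CDK4 rose by 0.33 ± 0.04.

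BCL2-family genes, which set the threshold of mitochondrial cell death, did not shift in one direction: 8 of 16 were higher and 5 lower. The BH3-only gene HRK fell 11.1-fold (values above), and BMF, a BH3-only gene tied to loss of matrix attachment, had 2.86, 3.44 and 3.06 CPM in WT dimerizer libraries, against 13.5, 11.7 and 12.7 CPM in WT control libraries (-2.01 ± 0.16). The survival gene BCL2L1 (BCL-XL) fell (-0.73 ± 0.05), and the pro-death genes BOK, BAK1 and BID rose by 0.56 ± 0.06, 0.43 ± 0.05 and 0.49 ± 0.07. Targets of p53 were higher in 14 of 24 and lower in 4, with TP53INP1 and TIGAR up by 1.14 ± 0.05 and 0.96 ± 0.06 and CDKN1A among those lower.

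Sterol synthesis genes were mostly higher. Of 25 tested, 21 were higher and none was lower, with a median log2 of 0.46 where 30.3% of all genes were called higher. The remaining 4 were PMVK (0.07 ± 0.05; called without WT control replicate 3, adjusted p = 0.0244), LSS (-0.02 ± 0.04), NSDHL (0.03 ± 0.06) and EBP (-0.01 ± 0.09). STARD4, a carrier of cholesterol between membranes, had 79.6, 77.4 and 77.5 CPM in WT dimerizer libraries, against 30.7, 28.98 and 29.95 CPM in WT control libraries (log2 difference 1.39 ± 0.05; adjusted p = 3.5e-20). SREBF2, the master transcription factor of the pathway, had 368, 381 and 372 CPM in WT dimerizer libraries, against 199, 204 and 216 CPM in WT control libraries (0.86 ± 0.04), and the enzymes SQLE, MSMO1, CYP51A1 and IDI1 rose by 0.84 ± 0.04, 0.82 ± 0.05, 0.67 ± 0.04 and 0.95 ± 0.07. On the rescaled TPM the list had 17 higher and 1 lower.

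Because these genes moved together, their promoters are shown. SREBP factors are known to act at sterol regulatory elements next to CCAAT boxes, which are bound by NF-Y. The 250 bases before the transcription start were taken from RefSeq (GRCh38.p14), each in the direction of its gene, for the 4 called sterol genes with the smallest adjusted p among those with a CCAAT box in this window. Capitals mark CCAAT on either strand (ATTGG on the printed strand) and, in SREBF2, the sterol regulatory core TCACNCCAC.
STARD4 promoter (chr5:111512536-111512785, minus strand): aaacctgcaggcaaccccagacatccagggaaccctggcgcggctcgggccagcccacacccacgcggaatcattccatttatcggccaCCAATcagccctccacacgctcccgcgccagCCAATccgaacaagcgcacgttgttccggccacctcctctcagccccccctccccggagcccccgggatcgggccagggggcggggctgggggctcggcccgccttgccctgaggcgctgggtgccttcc
SREBF2 promoter (chr22:41832855-41833104, plus strand): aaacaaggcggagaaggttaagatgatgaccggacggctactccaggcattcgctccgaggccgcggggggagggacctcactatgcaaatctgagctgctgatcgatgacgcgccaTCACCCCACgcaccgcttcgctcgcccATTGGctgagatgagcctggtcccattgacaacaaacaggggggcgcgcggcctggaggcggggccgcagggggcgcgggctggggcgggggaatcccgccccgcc
MSMO1 promoter (chr4:165327419-165327668, plus strand): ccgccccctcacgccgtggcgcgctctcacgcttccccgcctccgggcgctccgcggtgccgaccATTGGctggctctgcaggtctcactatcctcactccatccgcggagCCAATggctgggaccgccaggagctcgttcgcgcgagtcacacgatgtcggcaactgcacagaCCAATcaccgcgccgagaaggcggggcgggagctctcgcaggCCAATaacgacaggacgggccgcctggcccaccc
HMGCS1 promoter (chr5:43313413-43313662, minus strand): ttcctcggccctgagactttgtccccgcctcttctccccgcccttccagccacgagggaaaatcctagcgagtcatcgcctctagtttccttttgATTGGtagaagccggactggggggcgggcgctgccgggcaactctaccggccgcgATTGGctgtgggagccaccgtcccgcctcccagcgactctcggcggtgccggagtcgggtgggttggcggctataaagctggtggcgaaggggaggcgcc
STARD4 held 2 boxes at bases -161 and -130, MSMO1 4 boxes at bases -185, -139, -76 and -34, HMGCS1 2 boxes at bases -155 and -100 and SREBF2 1 box at base -106, and the SREBF2 window also held the sterol regulatory core at base -133, upstream of its CCAAT box. HMGCS1, the enzyme that makes HMG-CoA, rose by 0.50 ± 0.05. Over the 19 sterol genes with a window in the table, 15 held CCAAT on either strand (78.9%), against 33.04% of the 27305 promoters in the table (the first window of each gene) and 34.8% of the 10682 that belong to tested genes. Of the 15 called sterol genes with a window 12 held CCAAT, and so did LSS, NSDHL and EBP, which were not called. The box thus did not separate called from uncalled members. The sterol core was found in 1 of the 19 windows and in 0.875% of all promoters. The same search in other lists gave TCACGTG, the E-box of lysosomal genes, in 9 of 36 lysosome promoters (3.38% of all), the SMAD element CAGAC in 6 of 14 BMP target promoters (37.8%), the GC-rich element GGCGCC in 2 of these (16.1%), GGAATG of the TEAD factors in 5 of 15 YAP/TAZ target promoters (11.9%), and TGANTCA of AP-1 in 0 of 13 promoters of the AP-1 genes (6.596%). All were searched on both strands. Among promoters of tested genes the rates, in the same order, were 5.08, 36.2, 25.4, 9.61 and 4.34%. Of the 9 called BMP targets with a window, 4 held CAGAC and 0 held GGCGCC. A match of letters is a description of the sequence and not a bound site.

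Fatty acid synthesis and desaturation followed with 16 of 24 higher and 4 lower. ACSL4, which activates polyunsaturated fatty acids, rose by 1.26 ± 0.05, SREBF1 by 0.70 ± 0.04 and the desaturases SCD5 and SCD by 1.06 ± 0.07 and 1.35 ± 0.08. SCD had 1188, 1246 and 1165 CPM in WT dimerizer libraries, against 434, 492 and 487 CPM in WT control libraries. Cholesterol export genes were 4 higher and 3 lower of 11, a balance that turned on the rescaled TPM and with the 6 libraries alone, with APOE on one side and the sterol exporter ABCG1 (-0.73 ± 0.06) on the other. Lysosomal genes were split. Of 59 tested, 18 were higher and 20 lower, with a median log2 of -0.03, and the counts were 25 higher and 11 lower on log2(TPM + 1) and 14 higher and 32 lower on the rescaled TPM. IDS, an enzyme of heparan sulfate breakdown (-0.88 ± 0.04), and the mannosidase MAN2B1 (-0.68 ± 0.04) fell, while the calcium channel MCOLN3 rose by 2.61 ± 0.19. MITF (-0.94 ± 0.14) and TFEB (-0.46 ± 0.08), which control lysosomal genes, fell.

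All 13 protein genes of the mitochondrial genome were lower, with a median log2 of -0.99 and 6 of them past 2-fold. Together they took 7.53, 7.32 and 7.35% of the counts in WT dimerizer libraries, against 13.1, 13.01 and 13.1% in WT control libraries, a difference of -5.68 percentage points. The exact permutation test (two-sided) gave p = 0.10, the smallest that 3 against 3 libraries allow, and the groups were wide apart compared with the spread within them. The fall was uneven across the genome. The log2 difference was -1.36 ± 0.04 for MT-ND4, -1.39 ± 0.04 for MT-ND2 and -1.01 ± 0.03 for MT-CYB, but -0.67 ± 0.04 for MT-CO1 and -0.57 ± 0.05 for MT-ND1. Nuclear genes of complex I, which joins 7 of these products, were lower in 22 of 37 and higher in 4, with a median log2 of -0.15 and none past 2-fold. That count depended on the scale, with 6 higher and 8 lower on log2(TPM + 1) and 0 higher and 29 lower on the rescaled TPM. NDUFS7 fell (-0.61 ± 0.05). Complexes III and IV and the ATP synthase had as many nuclear genes higher as lower in counts (4 and 4 of 10, 3 and 3 of 11, 5 and 5 of 17). This balance did not hold on the TPM scales. Log2(TPM + 1) gave 5 higher and 2 lower for complex III, 6 higher and 1 lower for complex IV and 8 higher and 1 lower for the ATP synthase, and the rescaled TPM gave 3 higher and 5 lower, 1 higher and 6 lower, and 2 higher and 10 lower. Among factors of mitochondrial gene expression, the RNA polymerase POLRMT fell (-0.40 ± 0.05), and TFAM, which packs the mitochondrial genome, rose by 0.34 ± 0.06. In JNKKO acini the share was 7.57, 7.48 and 7.32% with dimerizer and 9.11, 9.21 and 9.299% in control.

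**Figure D4:**
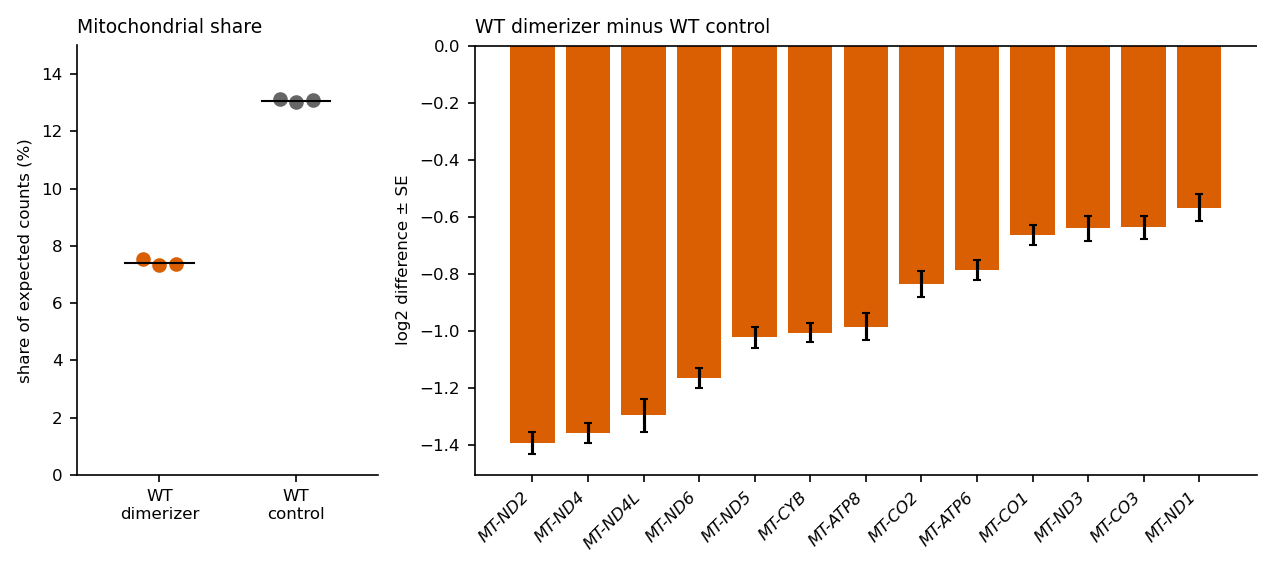
Left, share of expected counts from the 13 protein genes of the mitochondrial genome in each library, WT dimerizer (orange) between 7.32 and 7.53% and WT control (grey) between 13.01 and 13.1%. Right, log2 differences (WT dimerizer minus WT control) with their standard errors for each of the 13 genes, all of them below 0.

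Shares of the transcript pool (TPM) moved most for genes of mitochondria and of translation. Mitochondrially encoded genes took 16.9% of TPM in WT dimerizer and 28.6% in WT control, and TPM of all other genes includes that shift. Ranking by gain in mean TPM also favours abundant genes. Genes with the largest gain in mean TPM were EEF1A1, which brings transfer RNAs to the ribosome, TPT1, S100A2, KRT15 and the ribosomal protein genes RPS14, RPS21, RPS18, RPS29, RPL26 and RPLP0. EEF1A1 averaged 18808 ± 331.96 TPM in WT dimerizer and 13943 ± 478 TPM in WT control (SD, n = 3 each), and KRT15 averaged 3311 ± 128 TPM in WT dimerizer and 487 ± 22.1 TPM in WT control. The 10 largest losses were all mitochondrially encoded, led by MT-ATP8 with 29036 ± 931 TPM in WT dimerizer and 50144 ± 802 TPM in WT control. TPM of so short a gene depends strongly on its effective length. MT-CO1, MT-ND2, MT-ND4, MT-CO2, MT-ND4L, MT-ATP6, MT-CO3, MT-CYB and MT-ND3 followed. Of the cytosolic ribosomal protein genes 68 of 84 were higher and 5 lower, with a median log2 of 0.29 against 0.03 for all genes, and on the rescaled TPM 57 higher and 13 lower. RPS7 rose by 0.61 ± 0.03 and RPS3A by 0.65 ± 0.03, and RSEM divides the reads of such genes with their many pseudogenes by a model. Genes of ribosome biogenesis, many of them MYC targets, were higher in 24 of 35 and lower in 3 (10 higher and 7 lower on the rescaled TPM), for example NOP2 (0.35 ± 0.04) and the polymerase subunit POLR1B (0.40 ± 0.05). Mitochondrial ribosomal proteins had 28 higher and 20 lower of 77, a balance that turned on the rescaled TPM.

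Genes of the ATF4 response, which supplies amino acids and is induced by several eIF2α kinases, were higher in 15 of 26 and lower in 1. ATF4 rose by 0.57 ± 0.04, TRIB3 by 1.42 ± 0.16, and PHGDH and PSAT1, enzymes of serine synthesis, by 1.84 ± 0.20 and 0.75 ± 0.11. PHGDH had 29.9, 21.5 and 23.01 CPM in WT dimerizer libraries, against 4.95, 7.91 and 7.86 CPM in WT control libraries. CHAC1, which degrades glutathione, had 2.99, 1.604 and 1.99 CPM in WT dimerizer libraries, against 0.127, 0.226 and 0.168 CPM in WT control libraries. Genes of the unfolded protein response in the ER had no steady balance, with 6 higher and 6 lower of 23 and a median log2 of 0.001, but 9 higher and 2 lower on log2(TPM + 1) and 1 higher and 10 lower on the rescaled TPM. HSPA5 (BiP) did not pass the test (-0.07 ± 0.04). It was called lower on the rescaled TPM (adjusted p = 0.00365) and with the 6 libraries alone (adjusted p = 0.0235). Heat shock genes were divided, 7 higher and 8 lower of 19, a balance that turned on log2(TPM + 1), with HSPA8 up by 1.06 ± 0.04 and the small heat shock protein CRYAB lower (-2.54 ± 0.10).

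Target genes of 3 ligand- or oxidant-sensitive factors were mostly lower. NRF2 targets were lower in 12 of 21 and higher in 3: thioredoxin reductase TXNRD1 had 56.1, 54.9 and 57.1 CPM in WT dimerizer libraries, against 168, 168 and 158 CPM in WT control libraries (-1.56 ± 0.06), and FTL (-0.87 ± 0.06) and NQO1 (-0.47 ± 0.05) fell. Genes of the aryl hydrocarbon receptor axis were lower in 7 of 8, with CYP1B1 at 112, 102 and 118 CPM in WT dimerizer libraries, against 200.5, 209 and 198 CPM in WT control libraries and ALDH3A1 (-1.84 ± 0.15) and CYP1A1 (-1.13 ± 0.18) lower. The receptor AHR itself was the 1 higher member, a call lost on the rescaled TPM (adjusted p = 0.154), where the list had 0 higher and 7 lower. Glucocorticoid receptor targets, in cells that all received hydrocortisone, were lower in 9 of 13 and higher in 2. ZBTB16 had 94.8, 92.9 and 96.02 CPM in WT dimerizer libraries, against 214, 201 and 221 CPM in WT control libraries (-1.17 ± 0.04), and KLF9 (-0.88 ± 0.06), TSC22D3 (GILZ, -0.85 ± 0.07) and PER1 (-0.53 ± 0.03) fell.

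Chemokines and the interleukin-6 family were higher in 11 of 19 and lower in 1, 7 of the rises being at least 2-fold, with a median log2 of 0.73. CSF1, the growth factor of macrophages, had 25.9, 28.4 and 30.8 CPM in WT dimerizer libraries, against 13.3, 13.4 and 12.7 CPM in WT control libraries (1.11 ± 0.08). LIF had 7.44, 8.02 and 8.57 CPM in WT dimerizer libraries, against 3.46, 3.49 and 3.39 CPM in WT control libraries, and the chemokines CXCL14, CXCL2 and CXCL16 rose by 2.12 ± 0.18, 0.95 ± 0.12 and 0.73 ± 0.08. In the interleukin-1 family the ligand IL18 rose, with 88.1, 84.5 and 89.8 CPM in WT dimerizer libraries, against 36.9, 44.5 and 43.5 CPM in WT control libraries, while the receptor genes IL1RL1 (-2.50 ± 0.11), IL18R1 (-2.30 ± 0.10) and IL1R1 (-1.38 ± 0.06) fell. Interferon-stimulated genes were mixed, 16 higher and 9 lower of 36, which turned to 9 higher and 10 lower on the rescaled TPM. OAS1, OAS2 and OAS3, which lie side by side and make the messenger that activates RNase L, rose by 1.66 ± 0.08, 1.89 ± 0.21 and 1.05 ± 0.05, while ISG15 and MX1 were not called and GBP2 fell (-1.43 ± 0.06).

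Whether the response depended on JNK was asked by the interaction of genotype with dimerizer, the difference between the log2 change in WT acini and that in JNKKO acini. It passed the edgeR test for 7200 of 16911 genes (42.6%), 3589 with the more positive change in WT and 3611 with the more negative. Of the 15 largest rises in WT, 14 differed between genotypes. The WT change picked these genes and is also a term of the interaction, so counts above 42.6% are favoured by the selection. In JNKKO acini 5 of these 15 genes also rose, 6 fell and 4 were not called. Of the 15 largest falls 13 differed, yet 14 of them also fell in JNKKO acini and none rose. Among all of these genes FGF1, BBOX1 and PHACTR3 had the most positive differences. FGF1 rose in WT by 2.95 ± 0.18 and changed in JNKKO acini by -1.52 ± 0.17, an interaction of 4.47 ± 0.24 (adjusted p = 1.3e-14). BBOX1 gave 2.58 ± 0.14 and -1.15 ± 0.13, and PHACTR3 2.34 ± 0.12 and -1.26 ± 0.11 in WT and JNKKO acini. The most negative differences were those of SAMD11 (-5.82 ± 0.29 in WT and -1.15 ± 0.38 in JNKKO), DKK1 (-5.64 ± 0.11 and -2.26 ± 0.16) and CFAP61 (-3.24 ± 0.19 and -0.33 ± 0.23). SAMD11 and DKK1 fell in both genotypes, and CFAP61 was not called in JNKKO acini (adjusted p = 0.257). All 6 genes started from different levels. In control acini FGF1 averaged 0.869 ± 0.226 CPM in WT and 5.28 ± 0.799 CPM in JNKKO (SD, n = 3 each, as for the other 5 genes). BBOX1 averaged 2.09 ± 0.448 CPM in WT control and 12.2 ± 1.21 CPM in JNKKO control, and PHACTR3 averaged 3.66 ± 0.518 CPM in WT control and 15.4 ± 1.34 CPM in JNKKO control. These 3 genes, which rose in WT acini, were lower in WT control than in JNKKO control. SAMD11 averaged 6.46 ± 1.19 CPM in WT control and 0.495 ± 0.1404 CPM in JNKKO control. DKK1 averaged 96.6 ± 1.32 CPM in WT control and 7.904 ± 0.259 CPM in JNKKO control, and CFAP61 averaged 10.7 ± 0.864 CPM in WT control and 1.66 ± 0.429 CPM in JNKKO control. These 3 genes, which fell in WT acini, were higher in WT control than in JNKKO control. WT control values enter both the choice of the 6 genes and their interaction, so such differences in starting level are favoured as well.

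**Figure D5:**
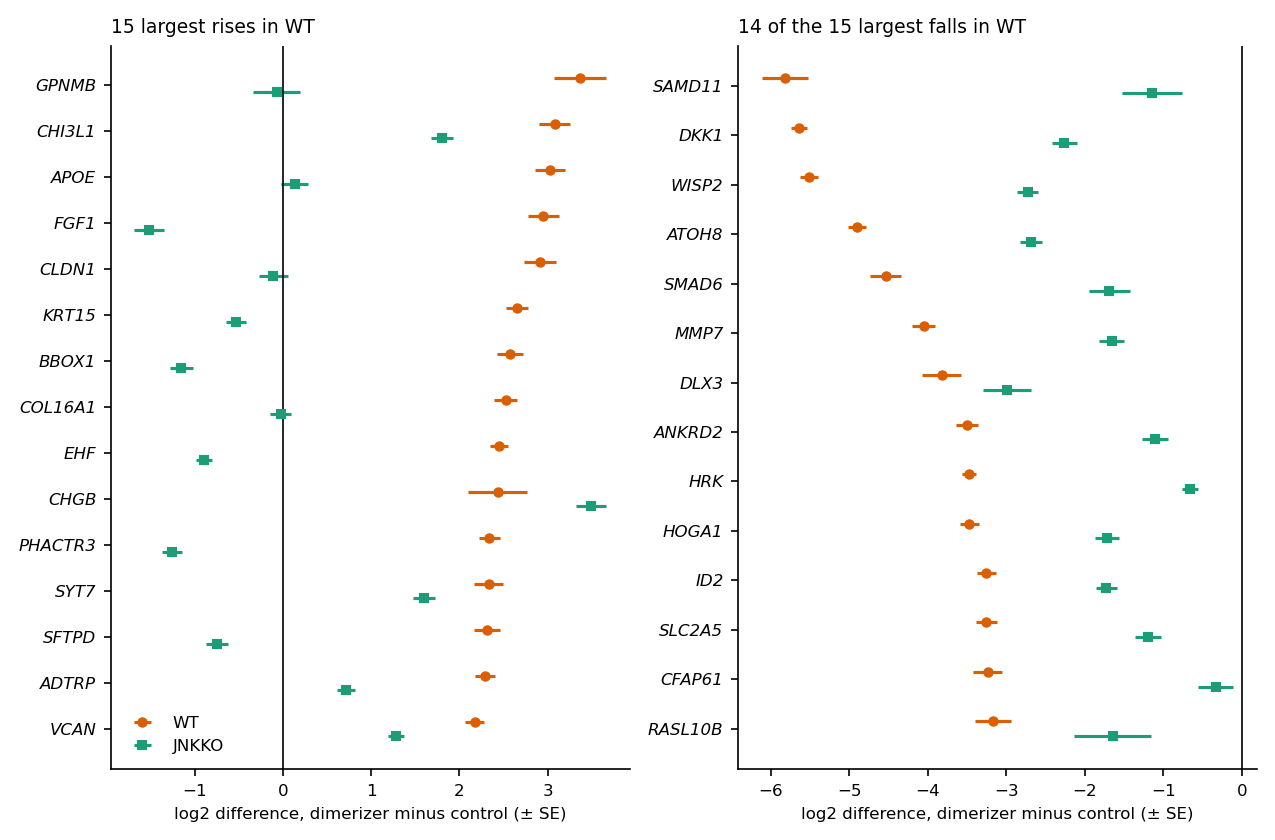
Log2 differences of dimerizer minus control with their standard errors for the 15 largest rises and 14 of the 15 largest falls in WT acini (orange), beside the same genes in JNKKO acini (green). The WT values chose the genes; the JNKKO values of rises lie on both sides of 0, and those of falls lie below 0.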

How the data were processed

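Per the labels' protocols, mRNA of acini was captured with oligo(dT), ribosomal RNA was removed, and random-primed libraries were sequenced from both ends. The authors deposited RSEM expected counts and TPM per gene for all 18 libraries. The submitters' processing notes name cutadapt, RSEM and hg38. Aligner and annotation: not given in the sources used here. The expected counts were rounded and fitted for all 18 libraries with 1 mean per group, TMM scaling and the filterByExpr filter (minimum count 10) in edgeR 4.0.16, robust quasi-likelihood F test, Benjamini-Hochberg over 16911 genes, threshold 0.05. CPM use the TMM library sizes. Alternatives were DESeq2 1.42.0, limma 3.58.1 on log2(TPM + 1) and log2(TPM + 0.1), other scalings and filters, left-out libraries and a replicate block. Tests were run first on simulated data (16294 genes, WT dimerizer against WT control). Called were 24 of 50 genes changed 1.2-fold, 45 of 50 changed 1.5-fold, 48 of 50 changed 2-fold and 46 of 50 changed 4-fold. Of the unchanged genes 10 were called. The simulation had far fewer changed genes than were called in the data and no other differences between groups. Its rates therefore need not hold for the data. Gene positions come from GENCODE 29 on GRCh38, matched by identifier for 42125 of 42141 genes, and 127 gene names altered in the table were restored.

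All lists and tests were chosen with earlier results of these data known. Genes named are the 15 largest rises and falls among called genes of at least 5 CPM without overlap, the 10 largest gains and losses of TPM, a fixed set of receptor, lineage and proliferation genes, and, in each list, at most 6 called members taken by adjusted p together with members that did not pass. The 15 rises and falls left out pseudogenes, hyphenated names and symbols with prefixes of the kind used for clones and non-coding genes. DUSP6, EGR1, ID1, HEY1, AHR, SCD, HMGCS1, S100A8, S100A9 and MT-ND1 were named after their values were seen. A few genes that the rule takes are not reported here. With 3 libraries per group the smallest exact permutation p is 0.10. The depth of each library was at least 29101159 expected counts in the WT groups.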

Additional observations from a re-analysis of the deposited data

Results flagged for a closer look

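The change with dimerizer differed between genotypes by the interaction test of edgeR for 7200 genes, 42.6% of those tested. For 3 of the genes with large rises in WT acini the difference, WT minus JNKKO on the log2 scale, was 4.47 for FGF1, 3.73 for BBOX1 and 3.60 for PHACTR3, each higher with dimerizer in WT acini and lower with dimerizer in JNKKO acini. For 3 of the genes with large falls it was -4.68 for SAMD11, -3.38 for DKK1 and -2.91 for CFAP61. These genes were taken from the extremes of the WT change, so the sizes describe the extremes only. In SAMD11 it also rests on the few reads of WT dimerizer libraries.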

How the results depend on the processing

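The count of genes passing the test was 9451 and lay between 8689 and 8935 when 1 of the 6 WT libraries was left out, at 9461 without the library whose genotype tag contradicts its title, at 8892 with DESeq2 and at 9329 with the 6 libraries alone. Tested against a 1.2-fold change (glmTreat), it was 4522, with 2555 higher and 1967 lower. On log2(TPM + 1) 2814 genes were lower and on log2(TPM + 0.1) 2760, and on TPM rescaled without mitochondrially encoded genes 3140 were higher. Changes of 2-fold or more were fewer on these scales, with 253 higher and 194 lower on log2(TPM + 1), 726 higher and 397 lower on log2(TPM + 0.1), and 154 higher and 315 lower on the rescaled TPM. The interaction count, 7200, was 6665 to 6916 with 1 of the 6 WT libraries left out. It was 6621 to 7146 with 1 JNKKO control or JNKKO dimerizer library left out and 7237 without the library with the contradicting tag. The mitochondrial difference in share was -11.8 points of TPM and -5.74 to -5.64 points of counts with 1 of the 6 WT libraries left out.

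Of 278 named genes, 259 were called in the main test and the rest were not. In all, 253 kept that status in each of the 17 alternatives that gave them a value (15 for mitochondrially encoded genes). None reversed. Most were named for large changes or small adjusted p, which favours stability. Among all 9451 called genes, 7673 were also called in the same direction on log2(TPM + 1). Against a 1.2-fold change the calls of AHR, DSP, FGFR2, HIF1A, ITGB4, JUN, KRT14, LEF1, MAPK8, SMAD4, TFAM and TGFA were lost. On the rescaled TPM those of AHR, EPGN, ITGB4, LEF1 and TGFA were lost, and HSPA5, KRT5, LSS, MSX2 and NGFR passed on the lower side. With the 6 libraries alone HSPA5, KRT5 and NGFR passed on the lower side, and with no filter FOS, KRT5, MKI67 and NGFR passed. Same-numbered replicates did not deviate together (r of 0.040, 0.039 and -0.019), so the numbers were not taken as pairs. With the replicate block 9469 genes passed, 5154 higher and 4315 lower, 807 and 619 of them by at least 2-fold, and 7183 for the interaction. Genes under 1 CPM rest on few reads, which limits the precision of their differences. P-values of the main test cover only the spread between libraries within groups of 3, estimated over all 18 libraries.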

Other observations

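Cell-contact receptors outside the lists above also changed. Of 16 Eph receptors and ephrins tested, 8 were higher and 3 lower, and on the rescaled TPM 8 higher and 6 lower. EPHA2, a receptor of epithelial contacts, had 65.6, 68.2 and 66.9 CPM in WT dimerizer libraries, against 34.6, 40.4 and 41.6 CPM in WT control libraries (0.78 ± 0.06), and the ligand EFNB1 rose by 0.83 ± 0.04, whereas EPHA4, with 4.65, 4.49 and 4.92 CPM in WT dimerizer libraries, against 15.4, 15.5 and 16.6 CPM in WT control libraries (-1.76 ± 0.11), and EPHB6 (-0.80 ± 0.08) fell. Axon guidance cues and their receptors were higher in 13 of 27 and lower in 5 (8 higher and 6 lower on the rescaled TPM). SEMA6A had 38.1, 38.6 and 36.5 CPM in WT dimerizer libraries, against 17.2, 11.1 and 12.3 CPM in WT control libraries, and the co-receptor NRP2 rose by 0.88 ± 0.07. Notch genes were 6 higher and 4 lower of 20, a balance that turned on the rescaled TPM, with the ligand DLL1 up by 1.62 ± 0.26. In counts 50% of the Notch list was called, against 55.9% of all genes.

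Metabolic gene families held calls in both directions. Aldehyde dehydrogenases had 9 higher and 7 lower of 18; ALDH3B1 had 10.6, 9.69 and 8.74 CPM in WT dimerizer libraries, against 63.9, 62.6 and 66.1 CPM in WT control libraries (-2.73 ± 0.08), and ALDH7A1 and ALDH5A1 rose by 0.67 ± 0.04 and 1.09 ± 0.09. Glycolysis genes were higher in 11 and lower in 5 of 23, a balance that turned on the rescaled TPM. GAPDH, often used as a reference gene, had 2907, 2916 and 2798 CPM in WT dimerizer libraries, against 1697, 1749 and 1786 CPM in WT control libraries (0.72 ± 0.04), LDHA rose by 0.57 ± 0.04, and ENO1 fell (-0.36 ± 0.03). Among hypoxia genes TMEM45A rose by 1.07 ± 0.12 and HIF1A by 0.33 ± 0.05, in a list with 8 higher and 3 lower of 22 and with 6 higher and 6 lower on the rescaled TPM. In counts 50% of the hypoxia list was called, against 55.9% of all genes. The clock genes PER1, PER2 (-0.57 ± 0.06), NR1D1 (-0.52 ± 0.06) and HLF (-1.64 ± 0.12) fell, and BHLHE41 and ARNTL2 rose by 0.84 ± 0.09 and 0.85 ± 0.10, of 19 clock genes with 8 higher and 5 lower.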
